A study of Mus musculus with 9 samples.

Results

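Expression of 3 hepatic angiosarcoma cell lines, called AS lines here, was compared with that of liver from 3 Notch1 knockout mice, called KO livers, so that both sides carried the same Notch1 genotype. These are 6 of the 9 arrays of the series. The other 3 are livers of Notch1 wild-type mice. They serve below for the levels of Notch1 and of hepatocyte lists, the choice of probe sets and a fit of all arrays given as an alternative. The comparison was described across all 19938 genes that had a probe set naming a single gene, each represented by its probe set of highest mean over the 9 arrays.

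The KO livers came from MxCre Notch1 lox/lox mice on a C57Bl/6 background. MxCre is a Cre recombinase driven by an interferon-responsive promoter, so that deletion can occur in several cell types of the liver and in blood cells. The mice received 300 µg of polyiosinic-polycytidylic acid, an RNA mimic that triggers the interferon response, on days 0, 3 and 6, starting at 4 weeks of age. The wild-type mice carried lox/lox Notch1 on the same background and had the same injections. The age at which livers were taken is not given in the sources used here. For the AS lines, hepatic endothelial cells were taken from knockout mice with a visible angiosarcoma and kept in culture for a long time, until fast-growing cells had formed a uniform population. The labels call the 3 AS samples biological replicates and do not say whether they are separate lines, separate cultures of 1 line or from separate mice. They are numbered AS line 1 to 3 here, and p-values measure only the spread between these samples. The comparison thus sets cultured cells against samples labelled liver, and culture and origin cannot be told apart. The extraction protocol of all arrays names its material as PHH, an abbreviation left unexplained, so marker levels hold for the RNA as extracted.

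Notch1 is a cell surface receptor that, once bound by a Jagged or Delta-like ligand on a neighbouring cell, releases a fragment that turns on genes with the DNA-binding protein Rbpj. In vessels it restrains sprouting and sets arterial identity, and in the liver sinusoid it helps to keep endothelial cells quiescent. Angiosarcoma is a malignant tumour of cells with endothelial features. Endothelial cells are usually recognised by the junction cadherin Cdh5, the adhesion molecule Pecam1, the growth factor receptors Kdr, Tek and Tie1 and the transcription factor Erg.

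Values are log2 expression, on which a difference of 1 is a 2-fold change. Replicates are given in the order 1, 2 and 3. A gene is called here when its adjusted p in limma, over all 19938 genes, was under 0.05. As a measure of what a silent gene reads on these arrays, the 95th percentile of 1190 olfactory and vomeronasal receptor genes was taken on each array. This dim reference lay between 5.74 and 5.91 in the lines and between 5.79 and 5.82 in the KO livers.

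Notch1 stood at 8.75, 8.61 and 7.83 in the AS lines and at 7.84, 8.75 and 8.52 in the KO livers, while the wild-type livers had 11.69, 11.02 and 11.71. The lines and the KO livers overlapped, with a difference of 0.03 (SE 0.344, limma adjusted p = 0.971), and all 6 arrays lay below the lowest wild-type value. The exact permutation test of lines against KO livers gave a 2-sided p of 1.0, where 0.1 is the smallest that 3 against 3 arrays allow. The labels place the deletion in the exon for the signal peptide, and which exons the probes read was not analysed here.

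Across all genes, 11.4% were called higher and 10.1% lower in the lines, and the groups did not overlap for 40.9% of genes, 24.1% upward and 16.7% downward. With at least a 2-fold change in addition, 6.11% were higher and 7.12% lower. The median difference over all genes was 0.05. The shares of 11.4% called higher and 10.1% called lower are the background for the list counts below. The arrays themselves were not all alike. Across genes, which are not independent replicates, the Pearson correlation was 0.947 to 0.966 between lines, 0.953 to 0.991 between KO livers and 0.818 to 0.863 between a line and a liver. KO liver 2 was richest in hepatocyte transcripts, with a mean of 11.25 over 31 hepatocyte metabolism genes against 8.56 and 7.58 in KO livers 1 and 3. The wild-type livers had 9.79, 11.09 and 10.92. KO livers 1 and 3 thus lay below every wild-type liver, and comparisons of hepatocyte genes with the lines rest in part on these poorer livers. KO liver 3 alone read as male, with the female-specific Xist at 4.96 against 11.85 or more in the other 5 arrays. AS line 2 was the line highest in hepatocyte genes, and AS line 1 the line highest in mitosis genes.

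**Figure D1:**
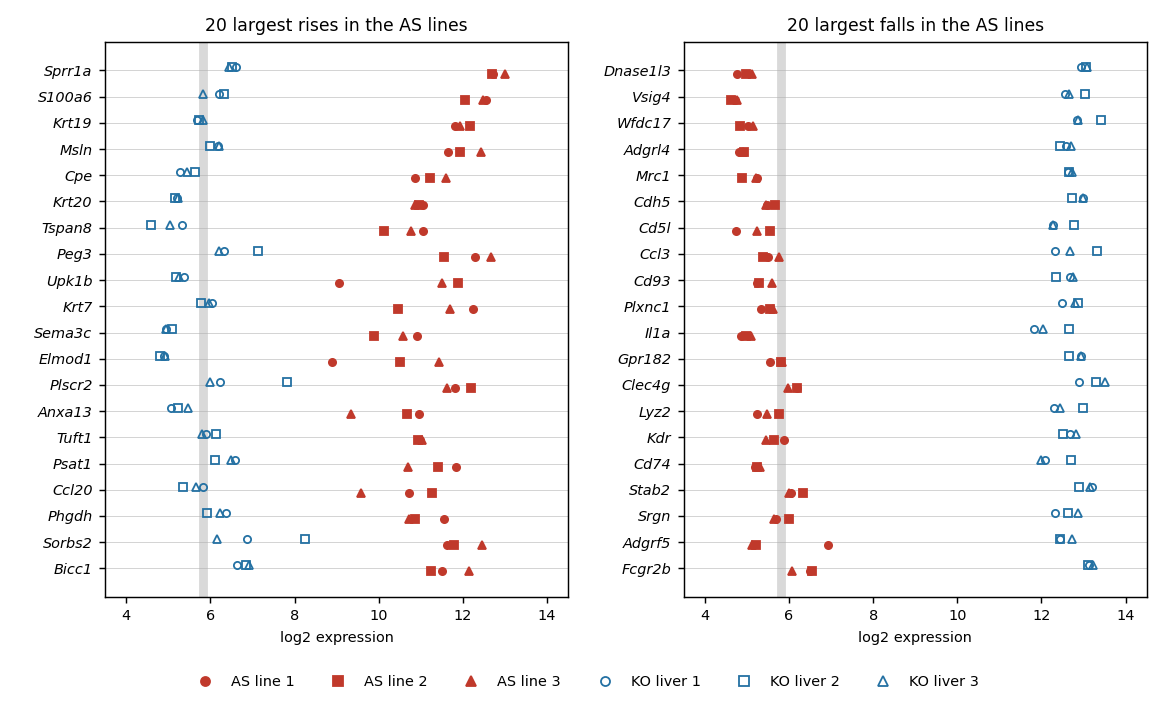
Log2 expression of the 20 genes with the largest rises (left panel) and the 20 with the largest falls (right panel) in the AS lines, 1 row per gene. Filled red symbols are the 3 AS lines, open blue symbols the 3 KO livers, and the grey band spans the dim reference over the 6 arrays, 5.74 to 5.91. Sprr1a, at 12.69 to 13 in the lines, and Dnase1l3, at 4.77 to 5.11, open the panels.

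The label of the lines was set against endothelial markers first. All 33 pan-endothelial genes measured were lower in every line than in every KO liver, 30 of them were called lower and 0 higher, and the median difference was -4.53. The list's mean was 6.62, 6.70 and 6.71 in the lines and 11.31, 10.83 and 11.34 in the KO livers. Only 4 of the 33 were at or under the dim reference in all lines, and some kept clear signal. Thbd, which was not called, read 9.46, 11 and 9.96 against 11.16, 11.63 and 11.41. In bulk RNA, fewer cells of a type and less RNA per cell cannot be told apart. Of the 8 pan-endothelial markers that define the type here, Cdh5, Pecam1, Kdr, Tek, Tie1, Erg, Esam and Cldn5, all were called lower. Pecam1, which holds endothelial cells together, read 5.65, 5.81 and 5.39 in the lines and 11.84, 11.41 and 11.92 in the KO livers. Erg, a transcription factor that maintains endothelial identity, read 6.28, 6.09 and 6.66 against 11.16, 10.39 and 11.07. Esam, an endothelial junction protein, stayed above the dim reference in the lines, at 7.31, 7.98 and 7.03, and fell by 4.87 (SE 0.28, adjusted p = 0.000418). No value of these 3 genes overlapped between the groups. The 8 defining markers thus go against an endothelial label for the RNA of these lines, which are called by their deposited name only.

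Genes of the liver sinusoid, the fenestrated capillary bed whose endothelium clears waste from the blood, were lower too. Of 25 sinusoidal endothelial genes, 20 were called lower and 0 higher, with a median difference of -5.75. Dnase1l3, a secreted nuclease that degrades DNA in the circulation, had one of the largest falls. It read 4.77, 4.97 and 5.11 in the lines and 12.93, 13.06 and 13.08 in the KO livers (log2 difference -8.07, SE 0.111, adjusted p = 1.47e-05). Its level in the lines was under the dim reference, so the size of the difference is not measured exactly, and the same holds for other genes under it. The scavenger receptors followed: Stab2, which takes up hyaluronan, stood at 6.05, 6.34 and 6.00 against 13.21, 12.89 and 13.15, and the mannose receptor Mrc1 at 5.24, 4.89 and 5.21 against 12.64, 12.65 and 12.72. The lectin Clec4g fell by 7.11 (SE 0.177), the orphan receptor Gpr182 by 7.11 (SE 0.123), and the hyaluronan receptor Lyve1 by 6.03 (SE 0.196). Among these genes the lines stayed within 1 log2 unit of each other. Dnase1l3 and Mrc1 were under the dim reference in every line, and the others were near it or slightly above it.

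Arterial and venous genes and vascular receptors were lower as well. Their lists share members with each other and with those above, such as Kdr, Tek, Tie1 and Flt4. The counts are therefore not separate support. Of 19 genes of arterial or venous identity, 11 were called lower and 0 higher (median -2.05). The Notch ligand Dll4, a marker of arteries and sprouting tips, read 5.96, 6.46 and 6.47 in the lines and 10.19, 9.47 and 10.23 in the KO livers. The arterial connexin Gja4 fell by 3.74 (SE 0.695, adjusted p = 0.0178). Of 29 genes of vascular signalling, 17 were called lower and 1 higher. The count was 12 without AS line 2, and 11 without KO liver 1 or without KO liver 3. Its coreceptors for VEGF and semaphorins varied among the lines: Nrp1 stood at 8.45, 5.61 and 7.97, and Nrp2 at 8.90, 6.23 and 6.41, all below the lowest KO liver values of 11.73 and 11.28. Flt4, the VEGF receptor of lymphatic and sinusoidal endothelium, kept clear signal in the lines at 8.11, 9.43 and 9.14, against 12.64, 12.40 and 12.69 in the KO livers. Of 8 lymphatic endothelial genes 6 were called lower, a count that was 4 without KO liver 1 or KO liver 3. Of the 6, Lyve1 and Flt4 are also in the sinusoidal list and Nrp2 in the vascular list. Mmrn1, another of the 6, was under the dim reference in all 6 arrays. Prox1, the regulator of lymphatic fate that hepatocytes also express, overlapped at 7.89, 9.24 and 8.29 against 7.75, 9.08 and 7.44.

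**Figure D2:**
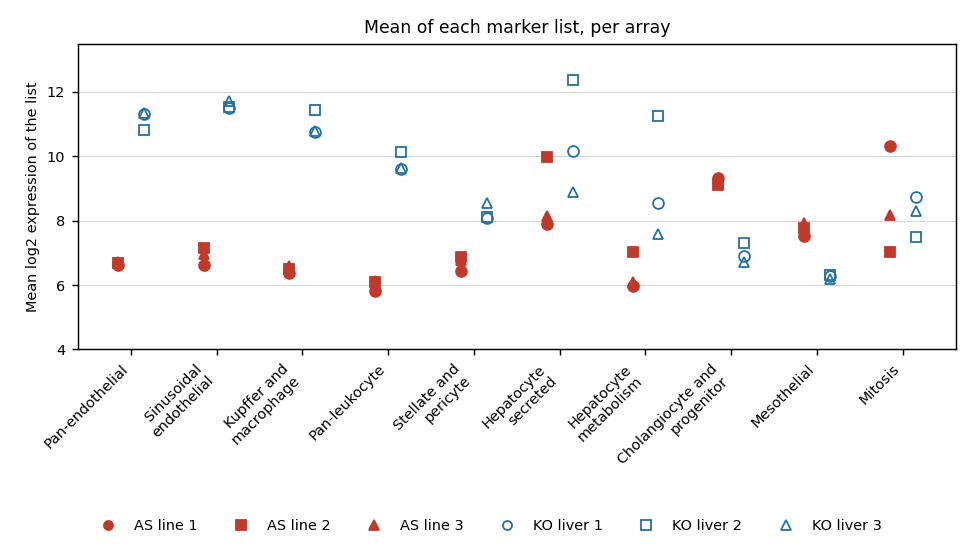
Mean log2 expression of 10 marker lists (horizontal axis) in each of the 6 arrays, with filled red symbols for the AS lines and open blue symbols for the KO livers. The lines sit near 6.7 for the pan-endothelial list, where the KO livers reach 10.83 to 11.34, and above every KO liver for the cholangiocyte and mesothelial lists.

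All 26 Kupffer cell and macrophage genes measured and all 17 pan-leukocyte genes were called lower, with median differences of -4.81 and -3.83. Vsig4, a complement receptor of resident liver macrophages, read 4.72, 4.63 and 4.76 in the lines and 12.57, 13.04 and 12.66 in the KO livers (log2 difference -8.06, SE 0.14, adjusted p = 2.2e-05). Adgre1, a surface receptor that marks mouse macrophages, read 5.46 in each line and 11.14, 11.71 and 11.19 in the KO livers. Ptprc, which encodes the leukocyte antigen CD45, stood at 5.25, 5.47 and 5.68 against 9.45, 10.02 and 9.50. None of these values in the lines exceeded the dim reference of its array, and the groups were far apart. The complement starter genes C1qb and C1qc, made by macrophages, fell by 6.64 (SE 0.198) and 6.43 (SE 0.224). Of 21 T and NK cell genes 15 were called lower and 1 higher. Nkg7, a protein of cytotoxic granules, read 4.96 to 5.25 against 8.09 to 8.69, and Eomes, a transcription factor, was the higher one, at 5.94, 7.10 and 6.44 against 5.22, 5.12 and 5.33. The count lower was 8 without KO liver 1 or without KO liver 3, and 5 in a fit of all 9 arrays.

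Antigen presentation and inflammatory signals followed the same direction. Of 10 MHC class II genes, 9 were called lower. The invariant chain Cd74, which escorts class II molecules, stood at 5.20, 5.24 and 5.32 in the lines and at 12.09, 12.71 and 11.99 in the KO livers. Of 11 class I genes, 8 were called lower, but 2, 3 and 1 without KO livers 1, 2 and 3. Tap1, a subunit of the peptide transporter for class I, read 6.08, 8.07 and 7.26 against 9.94, 10.13 and 10.28, whereas the class I light chain B2m stayed bright at 12.93, 13.40 and 13.22 against 13.36, 13.47 and 13.41, with overlap. Of 34 chemokines and cytokines, 19 were called lower and 3 higher. Il1a, the alarm cytokine interleukin 1 alpha, read 4.86, 4.99 and 5.09 against 11.82, 12.66 and 12.03, and Ccl3, which attracts monocytes, 5.49, 5.39 and 5.76 against 12.32, 13.31 and 12.68. Ccl20, a chemokine of epithelial surfaces, went the other way, at 10.71, 11.26 and 9.58 in the lines and 5.82, 5.34 and 5.65 in the KO livers.

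Interferon-stimulated genes were lower in the lines, and the lines differed among themselves. Of 30 such genes, 22 were called lower and 0 higher (median -2.46). The count was 15 without AS line 3, and 11, 14 and 12 without KO livers 1, 2 and 3. The list's mean was 6.94, 8.40 and 7.30 in the lines and 9.99, 10.26 and 10.57 in the KO livers. Cxcl10, a chemokine that interferon induces, read 8.20, 7.83 and 7.10 in the lines and 13.45, 13.64 and 13.74 in the KO livers. Rsad2, an antiviral enzyme, read 5.58, 8.07 and 6.15 against 10.85, 11.11 and 11.79. AS line 2 was the highest line for Rsad2, as for the interferon-inducible GTPase Iigp1 (8.26 against 4.96 and 6.24) and for Trim30a (9.42 against 5.01 and 6.21). Knockout mice, unlike the cultured cells, had received an interferon inducer, and its part in these values was not tested.

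**Figure D3:**
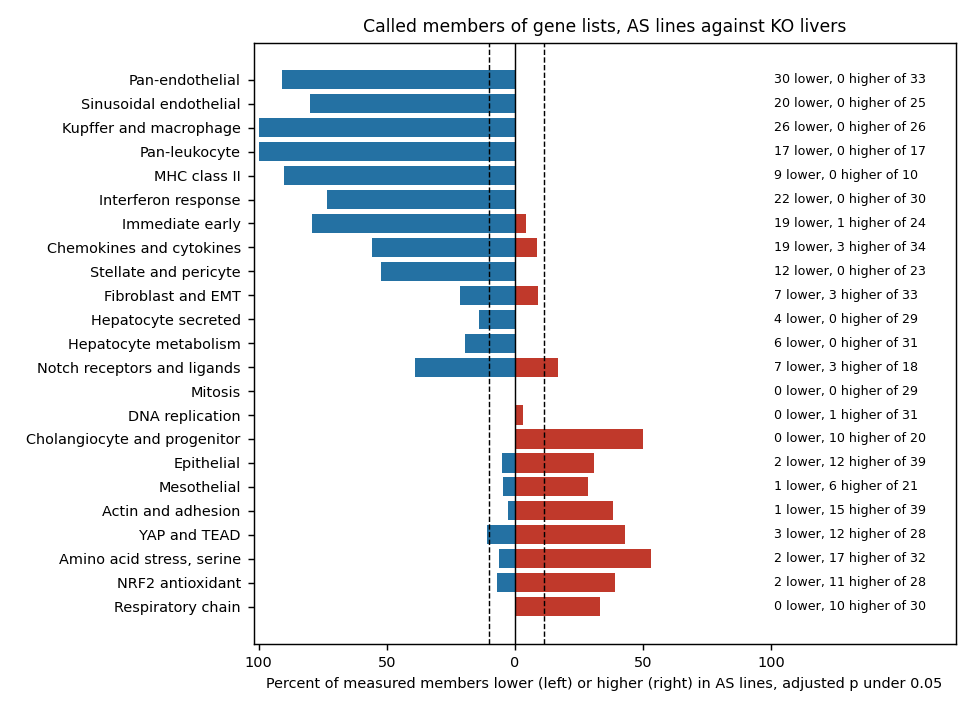
Percent of the measured members of 23 gene lists called lower (blue, to the left) or higher (red, to the right) in the AS lines, with the numbers at the right edge. Dashed lines mark the background over all genes, 10.1% lower and 11.4% higher, and the Kupffer and pan-leukocyte lists reach all of their 26 and 17 members on the left.

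The genes with the largest rises included keratins, surface proteins, metabolic enzymes and secreted factors. Sprr1a, a precursor of the cornified envelope of squamous cells that is also induced by stress, was first, at 12.71, 12.69 and 13 in the lines and 6.61, 6.50 and 6.43 in the KO livers, a 78.1-fold difference (log2 6.29, SE 0.113, adjusted p = 2.36e-05). S100a6, a calcium-binding protein of proliferating and epithelial cells, read 12.55, 12.04 and 12.48 against 6.20, 6.31 and 5.83. Both genes were bright in every line and within 1 log2 unit of the dim reference in the KO livers. Msln, which encodes the mesothelial surface protein mesothelin, read 11.65, 11.93 and 12.43 against 6.18, 6.00 and 6.20 (log2 5.88, SE 0.211, adjusted p = 9.98e-05). Cpe, a peptide-processing enzyme, rose by 5.77 (SE 0.206), Tspan8, a tetraspanin of epithelial cells, by 5.67 (SE 0.303), and the semaphorin Sema3c by 5.47 (SE 0.269). Efemp1, an extracellular matrix glycoprotein, read 11.50, 12.93 and 12.88 against 7.36, 8.01 and 8.12.

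Keratins of simple epithelia, the intermediate filaments of bile ducts and other ducts, were bright in all lines. Of 20 cholangiocyte and progenitor genes, 10 were called higher and 0 lower (median 2.43), and leaving out KO liver 1 gave 6. Krt19 read 11.82, 12.18 and 11.93 in the lines and 5.67, 5.72 and 5.83 in the KO livers, and its partner Krt7 read 12.25, 10.46 and 11.70 against 6.03, 5.78 and 5.97. Krt20, a keratin of intestinal and urothelial lining that is not in this list, read 11.04, 10.95 and 10.86 against 5.21, 5.16 and 5.23 (log2 5.75, SE 0.0752, adjusted p = 1.47e-05). The 3 genes were at or near the dim reference in the KO livers, with no overlap. Krt18, which hepatocytes express too, read 13.20, 13.07 and 13.04 against 8.91, 11.30 and 7.40, with KO liver 2 the highest of the livers. Sox9, a transcription factor of bile ducts and a Notch target, rose by 3.05 (SE 0.203, adjusted p = 0.000653). Not all duct markers were present: Epcam, an adhesion molecule of duct cells, read only 5.71, 5.56 and 6.02 in the lines, close to the dim reference.

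Members of the same adhesion family differed in opposite directions. Cdh1, the cadherin of epithelial junctions, read 11.43, 10.96 and 11.64 in the lines and 6.59, 6.94 and 6.48 in the KO livers (log2 4.67, SE 0.216, adjusted p = 0.000214). Cdh2, a cadherin shared by hepatocytes and mesenchymal cells, rose by 3.27 (SE 0.491), and Cdh6, a cadherin of kidney and developing ducts, by 4.56 (SE 0.769), with AS line 2 lowest at 8.63 against 11.13 and 11.41. The endothelial Cdh5 and the claudin of tight vessels, Cldn5, fell by 7.38 (SE 0.113) and 4.47 (SE 0.284). Over all 30 cadherins and claudins, 6 were called higher and 5 lower. Of 39 epithelial genes, 12 were called higher, 2 lower (Lama3 and Sfn) and 25 not at all, with a median of 0.38. The counts higher were 5 and 7 without KO livers 1 and 3. Some members were under the dim reference in every line, such as Grhl2 at 5.23, 5.35 and 5.23 and Esrp1 at 4.92, 4.84 and 4.82. The desmosome anchor Dsp read 10.32, 10.73 and 10.72 against 6.56, 8.32 and 6.00. Among integrins, Itga3, which binds laminin, rose by 4.67 (SE 0.177), and Itga2, which binds collagen, by 3.31 (SE 0.52). Of 39 actin and adhesion genes, 15 were called higher and 1, the fibronectin receptor subunit Itga5, lower. Anxa1, a membrane-binding annexin, read 11.91, 12.40 and 12.12 against 8.88, 8.68 and 9.04.

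Of 21 mesothelial genes, a list that shares Krt7, Krt18 and Krt19 with the duct list, 6 were called higher and 1 lower (median 0.46). Leaving out AS line 2, KO liver 1 or KO liver 3 gave 4. Upk1b, a uroplakin of urothelium and mesothelium, read 9.06, 11.89 and 11.51 in the lines and 5.37, 5.17 and 5.24 in the KO livers. Upk3b, a related protein, read 7.37, 8.07 and 9.28 against 6.22, 6.24 and 6.47 (adjusted p = 0.0456). Wt1, a transcription factor of the mesothelium, read 6.78, 8.09 and 7.47 against 6.46, 6.07 and 6.31, and was not called (adjusted p = 0.0704). In these 3 genes every line lay above every KO liver, as in 24.1% of all genes. Not all of the list rose: of the 21 differences, 7 were negative, against 7780 of all 19938 genes. The member called lower was Tcf21, at 5.66, 5.90 and 5.92 against 6.44, 6.89 and 6.87, and without KO liver 3 the count lower was 0.

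Plasma protein genes of hepatocytes were not uniformly lower. Of 29 genes for secreted hepatocyte proteins, 4 were called lower and 0 higher (median -1.92), and leaving out AS line 1, AS line 3 or KO liver 1 gave 2 lower. The count lower was near the background of 10.1%. Alb, which encodes albumin, read 12.31, 13.67 and 12.82 in the lines and 13.52, 13.86 and 12.14 in the KO livers, a difference of -0.24 (SE 0.571, adjusted p = 0.819) with overlap. Ttr, which encodes the thyroid hormone carrier transthyretin, read 12.42, 12.91 and 12.49 against 12.02, 13.41 and 10.48. Apoa1, the main protein of high-density lipoprotein, read 12.15, 13.17 and 9.19 against 12.29, 13.34 and 10.88. Alb and Ttr were thus bright in every line, and Apoa1 in 2 of the 3. Called lower were Mup3, a major urinary protein (log2 -5.44, SE 0.676), Apoa2, an apolipoprotein (-5.00, SE 0.755), Plg, the plasmin precursor (-4.54, SE 1.00), and Serpinc1, the inhibitor antithrombin (-4.03, SE 0.972). Mup3 belongs to a family of near-identical genes, which its probes may not separate.

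In some of these genes AS line 2 stood apart from the other lines. Ahsg, which encodes the plasma protein fetuin A, read 7.11, 13.44 and 7.23 in the lines and 12.41, 13.67 and 10.49 in the KO livers. F2, the thrombin precursor, read 6.66, 12.26 and 6.44 against 10.43, 12.47 and 8.56, and Kng1, the kininogen precursor, 6.76, 12.39 and 7.25 against 11.32, 13.07 and 9.50. In all of these genes AS line 2 was at the level of the livers and the other lines lay below every KO liver. Afp, the fetal albumin relative, read 6.38, 10.63 and 5.75 in the lines and 5.46 to 5.69 in the KO livers, so that every line lay above every liver, AS line 2 by far the most. The list's mean was 7.91, 9.98 and 8.16 in the lines against 10.18, 12.37 and 8.89 in the KO livers. In the wild-type livers it was 10.85, 12.09 and 12.26, above KO livers 1 and 3.

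**Figure D4:**
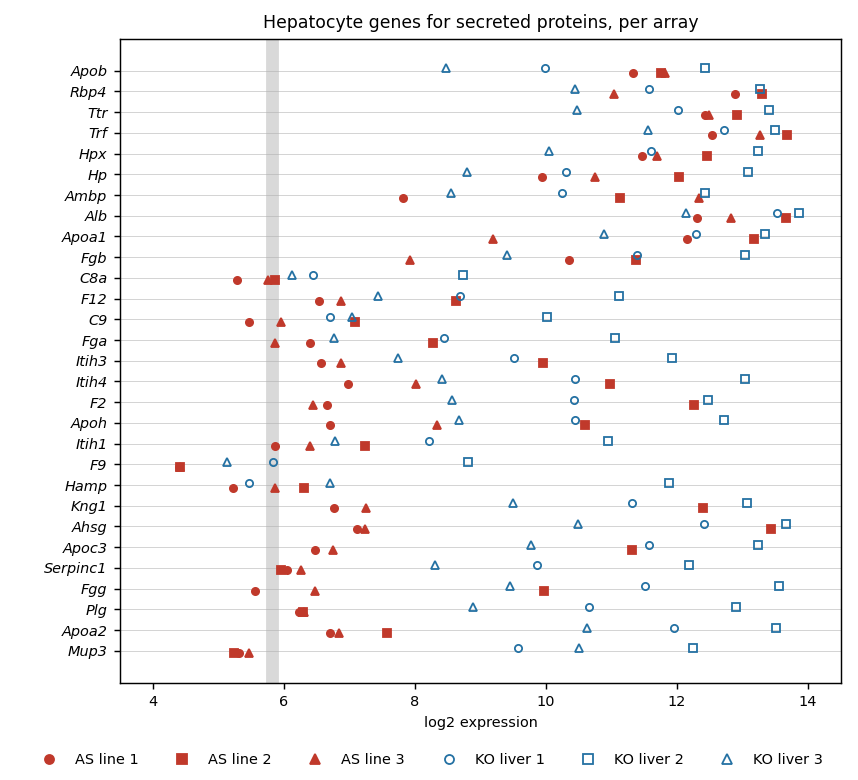
Log2 expression of the 29 measured genes for secreted hepatocyte proteins, 1 row per gene, ordered by the difference between AS lines (filled red) and KO livers (open blue); the grey band spans the dim reference. Alb stays above 12 in all 6 arrays, and AS line 2 (squares) lies apart from the other lines for Ahsg, F2 and Kng1.

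Of 31 metabolic genes of hepatocytes, 6 were called lower and 0 higher (median -2.80). Without overlap downward were 19, against 16.7% of all genes. At or under the dim reference in all lines were 12, against 5639 of all 19938 genes. The count called lower was 2 without AS line 1 or AS line 3, 3 without AS line 2 or KO liver 1, 10 without KO liver 2 and 15 with AS line 2 and KO liver 2 left out together, an alternative chosen after seeing the data. Cyp2e1, which oxidises ethanol, read 5.23, 5.58 and 5.46 in the lines and 11.78, 13.56 and 11.03 in the KO livers (log2 -6.70, SE 0.654, adjusted p = 0.00239). Cyp1a2, an enzyme of drug metabolism, read 5.20, 5.57 and 5.13 against 8.80, 11.53 and 8.57, and Slc10a1, the bile acid importer of hepatocytes, 5.32, 6.45 and 6.04 against 9.99, 12.51 and 8.81. KO liver 2 was the highest array for each of these genes. Cps1, the first enzyme of the urea cycle and a defining hepatocyte marker, read 5.56, 8.45 and 5.51 against 10.25, 12.48 and 8.15, with AS line 2 overlapping KO liver 3. Others stayed far above the dim reference: Fah, the last enzyme of tyrosine breakdown, read 11.51, 12.26 and 11.70 against 9.62, 12 and 8.01, with overlap.

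As a list, the transcription factors that drive hepatocyte genes were not lower like the enzymes against the 3 KO livers together, although some members were. Of 14 hepatic transcription factors, 2 were called higher and 1 lower (median 0.35), with 4 called higher without KO liver 2 and 1 without any other single array. These counts were near the background of 11.4% higher and 10.1% lower. The median was 0.98 without KO liver 2 and -0.02 without KO liver 3. The list's mean was 8.05, 8.53 and 8.05 in the lines and 7.28, 9.09 and 6.96 in the KO livers. In the wild-type livers it was 7.61, 8.57 and 8.46. Every line thus lay above KO livers 1 and 3 and below KO liver 2. Hnf4a, the central activator of hepatocyte genes, read 10.95, 11.10 and 10.35 in the lines and 7.80, 10.35 and 7.16 in the KO livers. The difference of 2.36 (SE 0.864) was not called (adjusted p = 0.121), and AS line 3 shared its value of 10.35 with KO liver 2. Foxa2, which opens chromatin at liver genes, read 9.46, 9.16 and 9.46 against 6.94, 7.89 and 6.84 (log2 2.14, SE 0.306, adjusted p = 0.00794). Onecut2, a factor of liver and bile duct development, read 10.26, 10.43 and 11.50 against 7.23, 9.30 and 6.72. Every line lay above every liver for Foxa2 and Onecut2. Nr5a2, a regulator of bile acid genes, fell by 3.45 (SE 0.393, adjusted p = 0.00389). Cebpa was lower in every line than in every liver, at 8.15, 7.89 and 8.16 against 8.99, 10.73 and 9.27. It was not called (limma adjusted p = 0.0706).

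Stellate cell genes were called in 1 direction and fibroblast genes in both. Of 23 stellate cell and pericyte genes, 12 were called lower and 0 higher (median -0.92), and 8 without KO liver 3. Dcn, a small matrix proteoglycan of fibroblasts, read 5.52, 6.10 and 6.17 in the lines and 12.01, 12.46 and 12.79 in the KO livers. Hgf, the growth factor that stellate cells make for hepatocytes, read 4.76, 4.48 and 4.90 against 9.91, 10.57 and 10.60, while its receptor Met, carried by epithelial cells, read 10.84, 9.53 and 10.14 against 6.07, 8.61 and 5.47 (adjusted p = 0.0481). Pdgfrb, a receptor that defines stellate cells, fell by 1.45 (SE 0.267). Of 33 genes of fibroblasts and epithelial-mesenchymal transition, 3 were called higher and 7 lower (median -0.09), with 1 higher without KO liver 1 or KO liver 3. Vim, the mesenchymal intermediate filament, was bright on both sides, at 13.26, 13.06 and 13.47 against 13.04, 12.87 and 13.09. The repressor of epithelial genes Zeb2 fell by 2.27 (SE 0.192), and the matrix proteins Lum and Postn by 4.00 (SE 0.238) and 3.49 (SE 0.22). The matrix protein Fbln2 went up, at 10.39, 12.42 and 12.80 against 8.27, 7.67 and 8.27.

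Basement membrane components changed in both directions. Of 28 collagen and basement membrane genes, 4 were called higher, near the background of 11.4%, and 6 lower, where the background was 10.1%. There were 3 lower without AS line 1, 2 lower without KO liver 1 or KO liver 3, and 2 higher without AS line 3 or KO liver 3. Lama4, the laminin chain of vessel walls, read 5.93, 5.94 and 6.80 in the lines and 9.99, 9.38 and 10.30 in the KO livers. Lama5, a chain found under epithelia and vessels, read 10.60, 11.27 and 10.98 against 8.19, 8.48 and 8.58 (log2 2.53, SE 0.203, adjusted p = 0.0012). The fibril collagen Col1a1 read 7.43, 7.58 and 7.83 against 8.31, 7.91 and 8.27, and was not called (adjusted p = 0.0679).

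Other members of the Notch pathway differed although Notch1 itself did not pass the test. Of 18 receptors, ligands and processing factors, 3 were called higher and 7 lower (median -0.39). Among receptors, Notch2, the main receptor of bile duct formation, read 10.19, 10.12 and 10.52 in the lines and 8.68, 9.64 and 8.67 in the KO livers (log2 1.28, SE 0.301, adjusted p = 0.0368), and the endothelial Notch4 read 7.25, 7.51 and 7.64 against 10.54, 9.76 and 10.45 (log2 -2.78, SE 0.242, adjusted p = 0.00159). Among ligands, Jag1 read 10.20, 10.57 and 11 against 7.56, 7.29 and 7.85 (log2 3.02, SE 0.249, adjusted p = 0.00134). Jag2 rose by 1.52 (SE 0.207), while Dll4 fell by 3.67 (SE 0.265) and Dll1 fell by 1.21 (SE 0.124). Both Jagged ligands were thus higher and these Delta-like ligands lower, with no overlap in any of the 4, as in 40.9% of all genes. The fringe enzymes Mfng and Lfng, which add sugars that tune ligand choice, had log2 differences of -2.77 (SE 0.221) and -2.08 (SE 0.5). Of 17 Notch target genes, 2 were called higher and 1 lower, counts close to or under the background of 11.4% higher and 10.1% lower: Sox9 and the E3 ligase gene Dtx4 rose, the latter by 1.82 (SE 0.394), and Myc fell by 0.60 (SE 0.12). Without AS line 3, KO liver 1 or KO liver 3, 1 was called higher, and without AS line 2, KO liver 1 or KO liver 2 none was called lower. The repressor Hes1 overlapped, at 9.86, 9.70 and 10.10 against 9.46, 9.70 and 9.50.

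Cells short of amino acids activate the transcription factor ATF4, which binds CARE elements of the sequence TGATGNAA and turns on transporters, synthetases and the serine pathway. Of 32 genes of this response, 17 were called higher and 2 lower (median 1.67), and leaving out single arrays gave 13 to 18 higher. Psat1 and Phgdh, successive enzymes of serine synthesis, had the largest rises. Psat1 read 11.84, 11.41 and 10.69 in the lines and 6.59, 6.11 and 6.48 in the KO livers (log2 4.92, SE 0.321, adjusted p = 0.000627). Phgdh read 11.55, 10.87 and 10.72 against 6.38, 5.92 and 6.22 (log2 4.87, SE 0.254, adjusted p = 0.000297). All lines were more than 4 units above all livers in both genes. Asns, which makes asparagine, read 12.64, 12.63 and 11.71 against 8.88, 7.39 and 8.46. Slc7a11, the cystine importer, read 9.46, 10.63 and 8.41 against 5.10, 5.38 and 4.95. Chac1, which breaks down glutathione, rose by 2.66 (SE 0.314). Atf4 itself overlapped, at 10.11, 10.33 and 9.82 against 10.20, 10.24 and 10.14. Atf3, a stress factor of the same family and also an immediate early gene, fell by 3.40 (SE 0.721).

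The promoters of Asns, Chac1 and Slc7a11 are shown because these called genes carry the CARE letters close to their start. Each is the 250 bases before the RefSeq gene start in GRCm38.p6, with matches to TGATGNAA on either strand in capitals. The windows are chr6:7693210-7693459 on the minus strand, chr2:119350992-119351241 on the plus strand and chr3:50443614-50443863 on the minus strand.
Asns: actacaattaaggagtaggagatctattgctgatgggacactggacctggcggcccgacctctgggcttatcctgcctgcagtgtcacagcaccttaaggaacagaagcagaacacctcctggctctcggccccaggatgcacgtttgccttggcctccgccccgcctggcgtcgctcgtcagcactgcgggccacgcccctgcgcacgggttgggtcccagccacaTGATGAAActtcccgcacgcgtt
Chac1: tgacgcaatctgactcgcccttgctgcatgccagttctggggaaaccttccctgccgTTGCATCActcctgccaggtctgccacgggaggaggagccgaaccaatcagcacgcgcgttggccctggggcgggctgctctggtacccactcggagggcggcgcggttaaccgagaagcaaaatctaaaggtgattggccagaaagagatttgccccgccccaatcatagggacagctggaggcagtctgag
Slc7a11: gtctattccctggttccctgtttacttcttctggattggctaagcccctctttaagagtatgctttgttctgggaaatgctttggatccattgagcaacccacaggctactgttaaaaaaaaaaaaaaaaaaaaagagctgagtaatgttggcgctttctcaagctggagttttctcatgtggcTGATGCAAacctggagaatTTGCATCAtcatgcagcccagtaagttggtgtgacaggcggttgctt

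Counted from the gene start, the match begins at -23 in Asns, at -193 in Chac1 and at -66 and -47 in Slc7a11. Over windows from 250 bases before to 50 bases after the start, 1304 of 32851 mouse promoters, or 3.97%, held the motif. Among the members called higher, 7 of 15 genes with a window held it, among those not called 2 of 10, and 1 of the 2 called lower, Atf3. The 3.97% counts windows, of which the members called higher had 7 of 18 with the motif. The list was drawn up as genes of the ATF4 response, so its share against all promoters is no result of these data. Psat1 and Phgdh, the members with the largest rises, had no match. A match is a string of letters in this window and was not tested as a binding site.

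**Figure D5:**
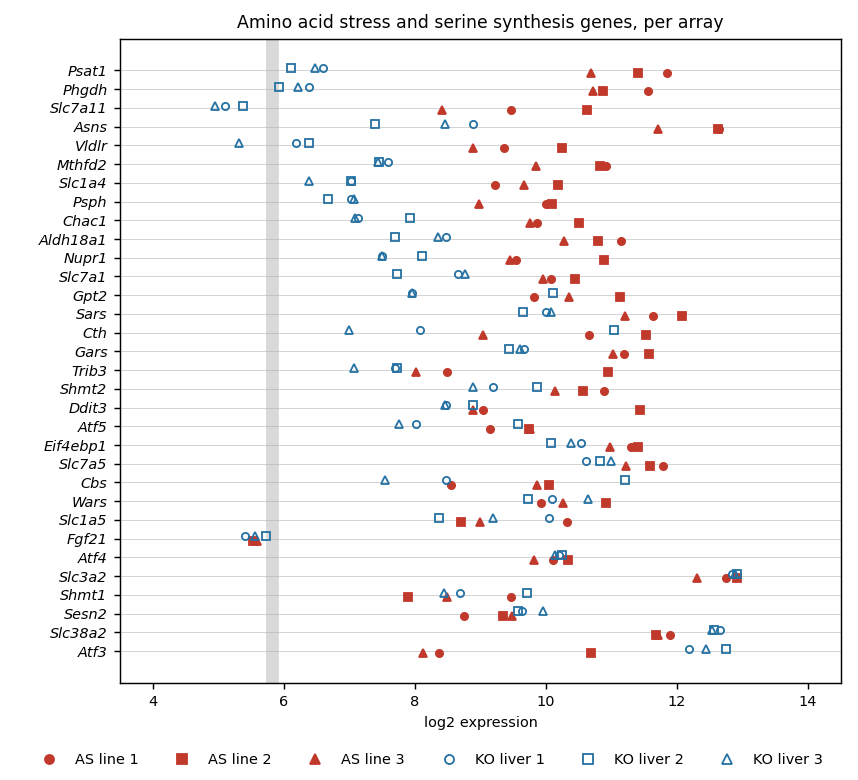
Log2 expression of the 32 measured genes of amino acid stress and serine synthesis, 1 row per gene, ordered by the difference between AS lines (filled red) and KO livers (open blue); the grey band spans the dim reference. Psat1 and Phgdh, at 10.69 to 11.84 in the lines and 5.92 to 6.59 in the KO livers, open the plot, and Atf3 closes it.

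Antioxidant genes controlled by the factor NRF2 were partly higher. Of 28, 11 were called higher and 2 lower (median 0.60), with 7, 6, 7 and 6 higher without AS line 2, AS line 3, KO liver 1 and KO liver 3. Gsta4, which detoxifies lipid aldehydes, read 12.13, 11.65 and 12.44 in the lines and 7.06, 9.09 and 6.80 in the KO livers. Gclc, the rate-limiting enzyme of glutathione synthesis, rose by 2.62 (SE 0.295, adjusted p = 0.00372). Me1, which makes NADPH from malate, rose by 4.04 (SE 0.783). Hmox1, which breaks down haem and is abundant in Kupffer cells, fell by 2.52 (SE 0.25).

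In other metabolic lists the counts depended on single arrays. Of 30 respiratory chain genes, 10 were called higher and 0 lower, and the median was 0.54. All 30 differences were positive, against 12158 of all 19938 genes. Only 5, 6, 3 and 3 were called higher without AS line 1, AS line 2, KO liver 1 and KO liver 3. Cycs, the electron carrier cytochrome c, read 12.33, 12.29 and 11.97 against 10.95, 11.20 and 11.03. Of 27 genes of cholesterol and fatty acid synthesis, 4 were called higher, near the background of 11.4%. The count was 0 without KO liver 1 or KO liver 3, 1 without AS line 1 or AS line 2, and 11 without KO liver 2. The sterol enzyme Lss read 10.14, 10.54 and 8.66 against 6.89, 8.28 and 6.52, and was not called (adjusted p = 0.0521). Of 24 glycolytic genes, 5 were called higher and 3 lower, with 3 higher without KO liver 3 and 5 lower without AS line 2. The muscle-type enolase Eno3 rose by 2.01 (SE 0.108), and Pfkfb3, which raises glycolytic flux in endothelial and immune cells, fell by 2.17 (SE 0.159). Of 25 genes of fatty acid oxidation, 1 was called higher, the coactivator of mitochondrial genes Ppargc1a, which read 9.61, 9.57 and 9.05 against 5.95, 6.79 and 5.73, and 1 lower, the kinase Pdk4. Without KO liver 2, 5 were called higher, and without AS line 1, KO liver 1 or KO liver 2 none was called lower.

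Growth factor systems changed member by member. Of 43 growth factors and receptors, 7 were called higher and 9 lower, with 3 higher without KO liver 1 or KO liver 3. The background was 11.4% higher and 10.1% lower. Mertk, a receptor with which macrophages clear dying cells, read 5.57, 5.48 and 5.83 in the lines and 11.53, 11.90 and 11.79 in the KO livers. Kit, a receptor of blood progenitors and sinusoidal endothelium, read 5.93, 6.14 and 6.09 against 10.66, 10.03 and 10.74. Igf1, the growth factor that liver secretes, fell by 4.30 (SE 0.442). Of 30 genes of TGF-beta and BMP signalling, 6 were called higher and 8 lower. Bmp2 and Bmp6, the ligands by which sinusoidal endothelium controls iron, read 7.08, 5.51 and 5.45 against 12.11, 12.34 and 12.39, and 7.16, 7.65 and 7.18 against 10.78, 11.57 and 11.41. Bmp7, an epithelial ligand, read 10.52, 9.47 and 9.32 against 6.42, 6.76 and 6.61, and Tgfb2 read 8.64, 9.71 and 9.35 against 5.55, 5.61 and 5.64. These 4 ligands, taken from the largest differences of the list, did not overlap between groups, as was so for 40.9% of all genes. Not every ligand parted: Tgfb3 overlapped, at 8.04, 8.29 and 10.65 against 8.17, 8.82 and 8.53. Of 34 Wnt pathway genes, 2 were called higher, under the background share, and 7 lower, with 1 to 5 higher when single arrays were left out. Wnt2, a ligand made by central vein and sinusoidal endothelium, fell by 4.82 (SE 0.311), and Rnf43, which removes Wnt receptors from the surface, rose by 2.18 (SE 0.452).

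YAP and TEAD are the effectors of the Hippo pathway that respond to cell spreading and stiffness. The list of their targets, which also holds pathway components such as Yap1, was higher in part. Of 28, 12 were called higher and 3 lower (median 0.94), and 8 were higher without KO liver 3. Ankrd1, a widely used reporter of this pathway, read 11.94, 8.83 and 8.36 in the lines and 5.37, 5.22 and 5.37 in the KO livers, so that AS line 1 stood well above the other lines. Myof, a membrane repair protein, read 12.13, 11.66 and 11.82 against 8.44, 9.07 and 8.41, and F3, the tissue factor that starts clotting, 10.28, 11.08 and 10.09 against 6.40, 7.99 and 6.43. Dlc1 went the other way, at 9.23, 7.38 and 7.27 against 11.51, 11.56 and 11.90 (log2 -3.69). The target Ccn2 was not called (log2 1.76, limma adjusted p = 0.0868).

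Of 29 mitosis genes, 0 passed in limma in either direction, and 1 had an unadjusted p under 0.05. The median difference was 0.30. It ranged from -0.56 without AS line 1, where 1 gene was called lower, through -0.06 without KO liver 2 and 0.59 without KO liver 1, to 1.06 without AS line 2. The list's mean was 10.33, 7.02 and 8.18 in the lines and 8.73, 7.49 and 8.31 in the KO livers. AS line 1 was thus the highest and AS line 2 the lowest of the 6 arrays. The spindle kinase Ttk read 8.87, 5.22 and 6.26 in the lines and 6.26, 5.31 and 5.98 in the KO livers. Of 31 replication genes 1 was called, Rrm2, a subunit of the enzyme that makes deoxynucleotides, at 11.55, 11.23 and 10.52 against 8.39, 7.72 and 8.20. Of 22 genes of cell cycle inhibition and p53, 3 were called higher and 3 lower, with 0 lower without KO liver 1 or KO liver 3. Both counts were near the background of 11.4% higher and 10.1% lower. Cdkn2b, an inhibitor of the G1 kinases, read 8.77, 8.75 and 9.26 against 7.06, 6.47 and 7.06, its neighbour Mtap 9.98, 9.47 and 9.84 against 7.87, 7.63 and 7.91, and Cdkn2a, which encodes the inhibitors p16 and p19Arf, 9.82, 7.63 and 8.32 against 7.25, 6.68 and 7.41. Every line exceeded every liver at this locus, which is often deleted in cultured lines, and Cdkn2a was not called (adjusted p = 0.15). The retinoblastoma gene Rb1 fell by 1.61 (SE 0.299).

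Immediate early genes, which cells switch on within minutes of a stimulus, were lower in the lines. Of 24, 19 were called lower and 1 higher, with a median of -2.11. Fosb, a subunit of the AP-1 factor, read 6.26, 6.57 and 6.78 in the lines and 11.68, 12.51 and 11.90 in the KO livers (log2 -5.49, SE 0.255, adjusted p = 0.000216). Klf2, a factor that blood flow induces in endothelium, read 7.09, 7.05 and 7.36 against 10.95, 10.93 and 11. No line reached any liver in these genes. Tissue handling differed by design, since livers were snap-frozen and the lines were cultured, and its part in these values was not tested.

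Probe sets for microRNA loci read the RNA of the locus, not the mature strand. Of 52 such loci, 2 were called higher and 8 lower, and 33 were at or under the dim reference in all lines, where a difference is poorly measured. Without KO liver 1 the counts were 1 and 5, without KO liver 3 they were 1 and 6, and with AS line 2 and KO liver 2 left out together 1 and 3. With dim genes left out they were 1 and 4. The 2 higher loci were Mir31, at 6.32, 7.40 and 7.48 in the lines and 5.05, 5.24 and 5.06 in the KO livers, and Mir200b, a microRNA of epithelia that represses Zeb genes, at 5.52, 5.92 and 5.83 against 4.70, 4.77 and 4.69. For Mir200b only AS line 2 passed the dim reference of its array, so its difference is poorly measured and the filter on dim genes drops it. Among the lower ones were 5 of the Mir17 cluster, of which Mir18 read 6.62, 5.58 and 5.27 against 8.34, 7.93 and 7.94. Mir19a fell by 1.64 (SE 0.223), and Mir17, by 0.49 (SE 0.0954), stayed under the dim reference in all 6 arrays. The mature RefSeq sequences (GRCm38.p6) of the higher loci and of the cluster are given to show which share a seed, the bases 2 to 8 that pair with targets, in capitals.
miR-31-5p: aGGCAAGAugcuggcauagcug
miR-200b-3p: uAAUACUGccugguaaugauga
miR-17-5p: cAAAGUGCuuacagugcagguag
miR-20a-5p: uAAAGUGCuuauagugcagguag
miR-18a-5p: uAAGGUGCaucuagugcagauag
miR-19a-3p: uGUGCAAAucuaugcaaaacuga
miR-19b-3p: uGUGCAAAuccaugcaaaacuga

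In this cluster miR-17-5p and miR-20a-5p share the seed AAAGUGC, and miR-19a-3p and miR-19b-3p share GUGCAAA, while miR-18a-5p and the 2 higher microRNAs have seeds of their own in this set. The neighbouring loci Mir27a and Mir23a fell by 0.88 (SE 0.117) and 0.73 (SE 0.135), and Mir99a fell by 1.51 (SE 0.328).

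The lines also differed from each other, which is described here without a test. A range over 3 log2 units was found for 228 genes among the lines and 318 among the KO livers, while the median SD over genes was 0.19 and 0.12. Cd36, a fatty acid receptor of endothelium and macrophages, had the widest range among the lines, at 5.08, 12.17 and 9.12 against 12.59, 12.13 and 12.48 in the KO livers. Vsig1, an adhesion protein of gastric epithelium, was bright in AS line 1 alone, at 10.56, 4.68 and 5.26. Cltrn, a membrane protein of kidney and pancreas, was bright in AS line 3 alone, at 6.06, 4.48 and 10.14. The cysteine-degrading enzyme Cdo1 was bright in AS line 2 alone, at 5.64, 11.20 and 5.84, like the plasma protein genes above. Among the KO livers, the widest ranges belonged to Cyp4a14, a fatty acid hydroxylase, at 9.46, 12.74 and 5.35, and to Xist, followed by genes such as Saa2, an acute phase protein, at 5.16, 11.85 and 6.37, and Hamp, the iron hormone hepcidin, at 5.46, 11.87 and 6.70.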

How the data were processed

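Affymetrix whole-transcript arrays, per the labels, measured RNA of 3 AS lines, 3 KO livers and 3 wild-type livers. The deposited series table holds log2 expression for 35556 probe sets, made by the authors with RMA in oligo, per the submitters' processing notes (versions not given in the sources used here). Gene symbols came from the platform annotation: 21789 probe sets named 1 gene, 1621 several, and 12146 had no gene here. A gene was represented by its probe set of highest mean over the 9 arrays. AS lines and KO livers were compared with limma 3.58.1 in R 4.3.3 (lmFit and eBayes, 2-sided, Benjamini-Hochberg over 19938 genes, threshold 0.05). The fit was tested on simulated data. The number of arrays limits the precision.

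Members and the 53 gene lists were chosen with earlier results of these data known. Of 1425 list entries, 1322 were measured. Genes described were drawn from the 30 largest rises and falls, the 5 members of largest absolute difference in each list, the 10 of widest range in each group, and the defining markers. Others, such as Notch2, Jag2, Dll1, Hes1, Col1a1, Flt4, Eomes, Fah and Vim, were chosen after their values were seen. Probes may not separate near-identical genes such as the Cyp4a, Mup and Saa families. Alternatives were the replicate number as a block, all 9 arrays, variance models, a filter on dim genes, other scalings and probe set rules, array weights, thresholds and leaving out arrays. Promoter and microRNA sequences are from RefSeq (GRCm38.p6).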

Additional observations from a re-analysis of the deposited data

How the results depend on the processing

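The main counts were 2268 genes higher and 2007 lower. Leaving out single arrays gave 986 to 2241 higher and 1287 to 1807 lower: without KO liver 1 the counts were 986 and 1295, and without KO liver 3 they were 1023 and 1287. The cause was not tested, although each such fit has 1 array fewer. With at least a 2-fold change 1218 were higher and 1420 lower. Leaving out AS line 2 and KO liver 2 together, chosen after seeing the data, gave 1511 and 1589. The other alternatives stayed within 1.5 times, at 1717 to 3202 higher and 1709 to 2532 lower. The Notch1 difference of 0.03 was -0.004 after 75th percentile scaling and -0.24 to 0.31 when single arrays were left out (-0.15 without AS line 1, -0.08 without AS line 2, -0.24 without KO liver 1), none of them called.

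The replicate numbers were not treated as pairing. The deviations of same-numbered arrays correlated at 0.24, 0.34 and 0.07 across genes, and AS line 3 correlated as well with KO liver 1, at 0.07. A replicate block gave 1717 higher and 1709 lower, and left Notch1 at 0.03 (limma adjusted p = 0.975). Of 137 other genes named in the text and called, 0 reversed and 41 lost the call in limma under at least 1 alternative: 17, 16 and 17 without AS lines 1, 2 and 3, and 31, 10 and 26 without KO livers 1, 2 and 3, 14 with the block and 20 with AS line 2 and KO liver 2 left out together. They are Ankrd1, Atf3, Cdh6, Cycs, Cyp1a2, Dsp, Dtx4, Eomes, Fbln2, Gja4, Iigp1, Itga2, Itga5, Krt18, Lfng, Me1, Met, Mir17, Mir18, Mir19a, Mir23a, Mir31, Mir99a, Myc, Notch2, Nrp1, Nrp2, Onecut2, Pdgfrb, Pdk4, Peg10, Plg, Rb1, Rnf43, Serpinc1, Slc10a1, Tap1, Timp2, Trim30a, Upk1b and Upk3b. Genes that the filter on dim genes dropped, such as Mir200b, were not counted as lost under it. Dlc1, Tcf21, Mmrn1, Lama3 and Sfn are not among the 137. Uncalled genes changed sign when single arrays were left out, over ranges of -0.76 to 0.10 for Alb, -1.50 to 0.49 for Apoa1, -0.23 to 0.03 for Atf4, -0.11 to 1.71 for Ttk, -0.11 to 1.36 for Ttr and -0.17 to 3.49 for Xist, and Alb was 0.03 with array weights. Signal over background limits genes near the dim reference, where a fall can be understated.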

Other observations

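Of 19 imprinted genes, which are expressed from 1 parental copy, 4 were called higher and 4 lower (median -0.04), with 2 lower without KO liver 3. Peg3, a zinc finger gene, read 12.28, 11.54 and 12.67 in the lines and 6.33, 7.12 and 6.20 in the KO livers. Mest, a gene of embryonic mesoderm, read 6.26, 5.71 and 5.62 against 12.06, 9.99 and 11.62. Both genes separated the groups without overlap, in opposite directions. Phlda2, a growth-restraining gene of the placenta, rose by 3.45 (SE 0.335, adjusted p = 0.00238), and Peg10, a gene derived from a retrotransposon, fell by 3.98 (SE 0.663, adjusted p = 0.0127).

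Plasminogen activators went in opposite directions. Plat, which encodes the tissue-type activator, read 10.28, 11.04 and 10.99 in the lines and 6.53, 6.40 and 6.86 in the KO livers, whereas Plau, which encodes the urokinase type, read 7.22, 6.07 and 7.39 against 11.47, 10.18 and 11. Neither gene overlapped between the groups. Over 28 proteases and inhibitors 5 were called higher and 6 lower, with 3 higher without KO liver 1 and 2 lower without KO liver 3. The metalloprotease inhibitors Timp1 and Timp2 rose by 2.67 (SE 0.427) and 2.21 (SE 0.376). Of 30 genes of ribosome biogenesis and nucleotide synthesis 8 were called higher and 0 lower (median 0.89), among them Ctps, which makes CTP, at 9.67, 8.55 and 9.19 against 7.05, 6.35 and 7.05. That count was 5 without AS line 2 and 4 without any 1 of the KO livers. Of 35 Hox genes, which mark position along the body axis, 0 were called higher and 4 lower in limma, a share close to the background of 10.1% lower, and 2 were lower without AS line 2 or KO liver 1. Hoxb4 read 5.99, 5.60 and 6.06 against 7.61, 6.95 and 7.48.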
